A study of Mus musculus with 6 samples.

Results

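Mmp13, Mmp12, Mmp3, Mmp10 and Mmp8 are neighbouring matrix metalloproteinase (MMP) genes that lie within 296 kb of mouse chromosome 9. They are 5 of the 55364 genes listed in the count tables, found by gene symbol, and all 5 passed the filter on low counts. They were selected on their counts and log2 fold changes in these same libraries, as neighbours that moved in opposite directions, so their values are a description and carry no p-value.

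The libraries came from primary mouse lung fibroblasts (LFs), the collagen-producing cells of the lung interstitium. There were 3 libraries labelled WT and 3 labelled TKS5 KO, and the cells of all 6 were kept in serum-free medium with 10 ng/ml TGFβ1 for 24 h. Because no untreated library was analysed here, every difference given is one between genotypes under TGFβ1 and not a response to it. TKS5, encoded by Sh3pxd2a, is a scaffold protein of podosomes, the actin structures at which cells secrete MMPs and degrade matrix. The labels name the genotype a knockout, but the study's methods describe LFs of heterozygous Tks5+/- mice and their WT littermates, since intercrosses gave no homozygous mice. Exon 11 of 1 Sh3pxd2a allele had been deleted with a Cre recombinase driven by the CMV promoter, which is active in all tissues, and not in fibroblasts alone. The study took its mouse LFs from C57Bl6/J mice of 8 to 10 weeks and used them at passage 2 to 3. The study describes its samples as independent biological samples, but the labels do not tie the 3 libraries of a group to separate mice or cultures. The SDs given are therefore the spread between these libraries. The SE and 95% interval of each log2 fold change come from the fit described at the end.

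MMPs are zinc-dependent proteases that are secreted as inactive zymogens, opened by other proteases and blocked by tissue inhibitors (TIMPs). Mmp8 and Mmp13 encode collagenases, which cut the triple helix of fibrillar collagens. Mmp3 and Mmp10 encode the closely related stromelysins, which cut proteoglycans, laminin and fibronectin and can activate other MMP zymogens. Mmp12 encodes macrophage elastase, which degrades elastin. Fibroblasts make stromelysins and collagenases on stimulation with cytokines, whereas Mmp12 is best known from macrophages and Mmp8 from neutrophils. Many MMP promoters carry a binding site for AP-1, the dimers of Fos and Jun proteins, a short distance before the start of transcription.

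Such sites are shown first because the 5 neighbours differ in them. RefSeq promoter windows (GRCm38.p6, the build of the count tables) reach from 250 bases before to 50 bases after each start and were at hand for all 5 genes, with 2 starts for Mmp12. The AP-1 letters TGAGTCA were searched on both strands, together with the ETS letters AGGAAG and the RUNX letters AACCACA, and the TATA letters TATAAA on the gene's strand only. Each line below gives 30 bases of the gene's strand, 5′ to 3′, with the matched letters in capitals. The first 4 are AP-1 matches, the fifth is the RUNX match of Mmp13 and the last is the single match found for Mmp8, to the ETS letters.
Mmp13, AP-1 letters on the opposite strand, chr9:7272468-7272497: ccccaaagtggTGACTCAtcactatcatgc
Mmp12, second start, chr9:7347319-7347348: gacatcaacagTGAGTCAgatagaggattt
Mmp3, chr9:7445765-7445794: ggaagcaattaTGAGTCAgttttcgggtga
Mmp10, chr9:7502268-7502297: tagcacccatgTGAGTCAtgcttagtgacc
Mmp13, RUNX, chr9:7272384-7272413: attctgccacaAACCACActtaggaagaaa
Mmp8, ETS letters on the opposite strand, chr9:7558197-7558226: taactagcacaaCTTCCTcattacacacag

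The AP-1 letters began 35 bases before the start of Mmp13, 44 before the second start of Mmp12, 46 before Mmp3 and 63 before Mmp10. They were in neither the first Mmp12 window nor the Mmp8 window. The TATA letters were in the same 4 windows and not in that of Mmp8. Of all 32851 windows, 5.20% held the AP-1 letters, 35.4% the ETS letters, 5.27% the RUNX letters and 8.32% the TATA letters. The RUNX match was the only one among the 5 genes, and ETS matches were found for Mmp13, Mmp12, Mmp3 and Mmp8. The AP-1 and TATA letters were thus in windows of both the genes that were higher and those that were lower below. A match of letters is not a site of binding, and the absence of these letters from a window says nothing about the factor.

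The 6 libraries held 1344507 to 2369882 counted reads, in a 3′ assay that reads the end of each transcript. Of 10346 genes tested, 4642 (44.9%) were called. The libraries labelled TKS5 KO were the higher group for 2356 genes (22.8%) and the lower group for 2286 (22.1%). A call required, in edgeR's quasi-likelihood test, a Benjamini-Hochberg adjusted p below 0.05 together with a change of 1.2-fold or more. The CPM values of the groups did not overlap for 53.8% of the genes tested. CPM are counts scaled to 1000000 per library after TMM scaling, which corrects for differences in composition. Without that scaling the median over all tested genes moved on the log2 scale from -0.05 to -0.47, and the calls became 1362 higher and 3944 lower. Sh3pxd2a itself had 205, 190 and 284 counts in WT and 238, 258 and 260 in the libraries labelled TKS5 KO (log2 0.29, SE 0.20, edgeR adjusted p = 0.249). Its 3′ reads lie outside the deleted exon, so they do not measure the deletion itself. The study reports less Tks5 mRNA in Tks5+/- LFs by Q-RT-PCR, a drop not seen in these counts. Whether the targeted allele still yields 3′ reads was not tested, so these counts do not settle the labels. All 10 fibroblast markers were tested, led by S100a4, Col1a1, Vim, Col1a2 and Col3a1, and their summed level was 13041 to 14640 CPM in WT and 17019 to 19400 CPM in the libraries labelled TKS5 KO. The largest part of both sums was S100a4, with means of 9108 and 11420 CPM. It was not called (log2 0.33, SE 0.23), and its groups overlapped. 4 of the 10 were called higher (Col3a1, Pdgfra, Thy1 and Vim) and 1, Pdgfrb, lower, but the calls of Col3a1 and Pdgfra were each lost under 8 of 18 alternatives. The groups also differed in Ddx3y of the Y chromosome (log2 -2.84, SE 0.25). Of the other Y-linked genes, Eif2s3y was not called (log2 -0.23, SE 0.43), and Uty and Kdm5d were too low to test. The female marker Xist had no count in any library. Nnt, part of which is missing in C57BL/6J mice, was lower too (log2 -1.56, SE 0.30). WT replicate 3 stood apart from the other WT libraries in 20 macrophage markers (2336 CPM in sum, against 451 and 376). Without it the log2 fold changes were 2.33 for Mmp13, -2.93 for Mmp12, -1.11 for Mmp3, 4.18 for Mmp10 and -3.69 for Mmp8, and all 5 were still called. The part of these differences in the MMP values was not tested.

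The collagenases moved apart. Mmp8 (ENSMUSG00000005800, chromosome 9, 7558456 to 7568485, 10 exons) had 214, 308 and 290 counts in WT replicates 1 to 3 and 18, 21 and 25 in the libraries labelled TKS5 KO. In CPM these were 138, 165 and 108 against 9.88, 12.3 and 12.8. The WT libraries lay close together, the others closer still, and the lowest WT library was 8.40 times the highest of the other group. The means were 137 ± 28.7 and 11.7 ± 1.56 CPM (SD, n = 3 each), an 11.7-fold lower level (log2 -3.54, SE 0.26, 95% interval -4.08 to -3.01).

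Mmp13 (ENSMUSG00000050578, 7272514 to 7283331, 10 exons), the other collagenase and the main one of mouse mesenchymal cells, had 10, 12 and 15 counts in WT and 26, 74 and 79 in the libraries labelled TKS5 KO. In CPM these were 6.44, 6.42 and 5.56 against 14.3, 43.3 and 40.4. The WT values were low and alike, whereas replicates 2 and 3 of the other group averaged 2.93 times replicate 1. The means were 6.14 ± 0.501 and 32.7 ± 16.0 CPM (SD, n = 3 each), a 5.32-fold higher level (log2 2.41, SE 0.38, 95% interval 1.62 to 3.20). The groups did not overlap, with the nearest pair of libraries 2.22-fold apart. The small WT counts limit how exactly the fold is known.

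The stromelysins moved apart as well, although they are each other's closest relatives. Mmp10 (ENSMUSG00000047562, 7502352 to 7510240, 10 exons), or stromelysin-2, had 14, 13 and 42 counts in WT and 180, 270 and 351 in the libraries labelled TKS5 KO. These were 9.01, 6.96 and 15.6 CPM against 98.8, 158 and 180 CPM. The lowest library of the second group was 6.34 times the highest WT library, replicate 3, which itself was 1.95 times the mean of the other two. The means were 10.5 ± 4.50 and 145 ± 41.9 CPM (SD, n = 3 each), a 13.8-fold higher level (log2 3.73, SE 0.30, 95% interval 3.11 to 4.35). Among all 10346 genes tested, 14 had a larger positive log2 fold change than Mmp10 and 111 a larger one than Mmp13.

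Mmp3 (ENSMUSG00000043613, 7445822 to 7455975, 10 exons), or stromelysin-1, had 368, 328 and 286 counts in WT and 187, 155 and 182 in the libraries labelled TKS5 KO. These were 237, 176 and 106 CPM against 103, 90.7 and 93.1 CPM. The groups only just failed to overlap, since WT replicate 3 was 1.03 times the highest library of the other group. The means were 173 ± 65.4 and 95.5 ± 6.30 CPM (SD, n = 3 each), a 1.81-fold lower level (log2 -0.85, SE 0.24, 95% interval -1.35 to -0.34). This was the smallest change of the 5, and 2038 of the genes tested had a more negative one. Without WT replicate 1 the log2 fold change was -0.56 and Mmp3 was no longer called.

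Mmp3 and Mmp10 share an identical run of 104 bases in their annotated transcripts. It ends 1351 bases before the 3′ end of the Mmp3 transcript and 1312 bases before that of Mmp10, and in the last 500 bases, where a 3′ assay reads, the longest shared run was 14 bases. Every other pair of genes in the run that includes a member shared at most 20 bases in a row. The annotated 3′ UTRs are 288 bases long for Mmp3, 252 for Mmp10, 950 for Mmp8 and 1216 for Mmp13.

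Mmp12 (ENSMUSG00000049723, 7344381 to 7369499), macrophage elastase, had 96, 90 and 462 counts in WT and 19, 13 and 7 in the libraries labelled TKS5 KO. These were 61.8, 48.2 and 171 CPM against 10.4, 7.61 and 3.58 CPM. All WT libraries were above all others, but WT replicate 3 was 3.12 times the mean of WT replicates 1 and 2. The means were 93.7 ± 67.5 and 7.21 ± 3.44 CPM (SD, n = 3 each), a 13.0-fold lower level (log2 -3.72, SE 0.68, 95% interval -5.38 to -2.07). Without WT replicate 3 the ratio of the means was 7.63 and the fitted log2 fold change -2.93, still called. Without TKS5 KO replicate 2 the log2 fold change was -3.74 and Mmp12 was not called. Several 3′ ends are annotated for this gene, and the last one overlaps Mmp1b on the opposite strand, which had 1 count in all libraries together.

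In all, 2 members were called higher and 3 lower, against a background of 44.9% of genes called, and all 5 had groups that did not overlap, against 53.8%. Since the genes were picked for this contrast, nothing is read from either count. In the plot of levels by library the genes stand in their order on the chromosome.

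**Figure D1:**
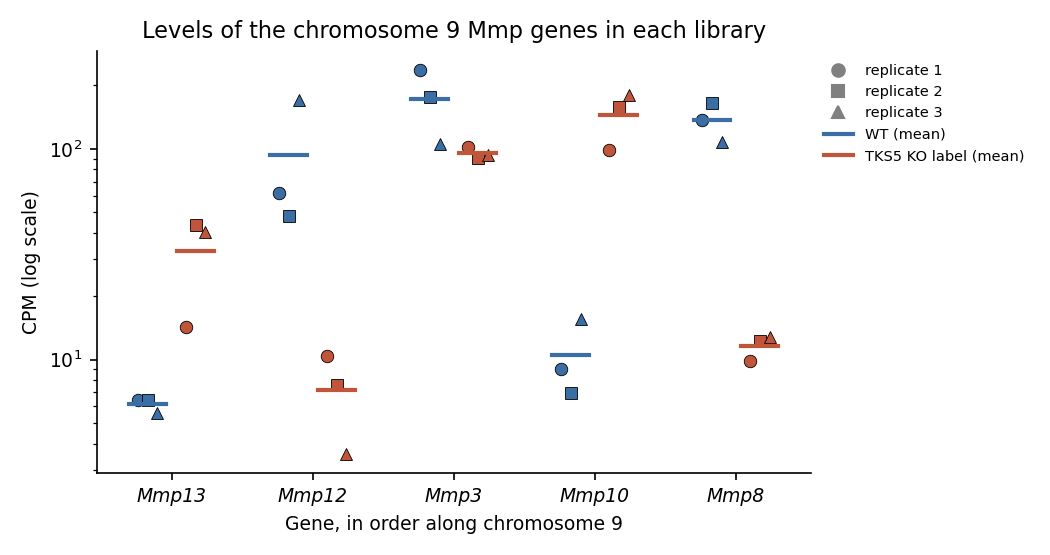
CPM of the 5 genes on a log scale, in chromosomal order, with 1 point per library (symbols give the replicate) and bars for the mean of each group of 3. Mmp13 and Mmp10 were higher in all 3 libraries labelled TKS5 KO, Mmp12 and Mmp8 lower in all 3, and for Mmp3 WT replicate 3 (106 CPM) lay next to the other group (up to 103 CPM).

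All 5 genes are read from the same strand, and from Mmp13 to Mmp8 the log2 fold changes ran 2.41, -3.72, -0.85, 3.73 and -3.54. The direction thus changed at 3 of the 4 steps between members. The gaps between the genes were 61049 bases (Mmp13 to Mmp12), 76322 (Mmp12 to Mmp3), 46376 (Mmp3 to Mmp10) and 48215 (Mmp10 to Mmp8). The log2 fold change of Mmp12 minus that of Mmp13 was -6.13, and that of Mmp8 minus that of Mmp10 was -7.27.

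Ratios of 2 genes within a library do not depend on its scaling. The log2 ratio of Mmp8 to Mmp10 counts was 3.93, 4.57 and 2.79 in WT and -3.32, -3.68 and -3.81 in the libraries labelled TKS5 KO. The sign was the opposite in each library of the second group, so that Mmp8 held more reads than Mmp10 in all 3 WT libraries and fewer in the other 3. Mmp12 to Mmp13 behaved likewise, at 3.26, 2.91 and 4.94 in WT and -0.45, -2.51 and -3.50 in the other group. The log2 ratio of the stromelysins, Mmp10 to Mmp3, went from a mean of -4.05 ± 1.11 to 0.56 ± 0.54 (SD, n = 3 each), and the groups did not overlap. Mmp3 to Mmp12 was 1.94, 1.87 and -0.69 in WT against 3.30, 3.58 and 4.70. Here the low WT value was that of replicate 3, the library with the high Mmp12 count.

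The make-up of the reads on the 5 genes differed between the groups. The summed level was 402 to 452 CPM in WT and 236 to 330 CPM in the libraries labelled TKS5 KO, with means of 420 ± 27.7 and 292 ± 49.7 (SD, n = 3 each). Mmp10 took 2.52 ± 1.15% of these reads in WT and 49.0 ± 6.48% in the other group, and Mmp13 went from 1.46 ± 0.119% to 10.7 ± 4.14%. Mmp8 held 32.7 ± 7.50% in WT and 3.88% to 4.19% in the other group, and Mmp12 went from 22.6 ± 17.0% to 2.65 ± 1.68%. The share of Mmp3 was 40.7 ± 13.4% and 33.6 ± 8.56%, a difference smaller than the spread. These are shares of reads, and with different 3′ UTRs they are not shares of transcripts.

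**Figure D2:**
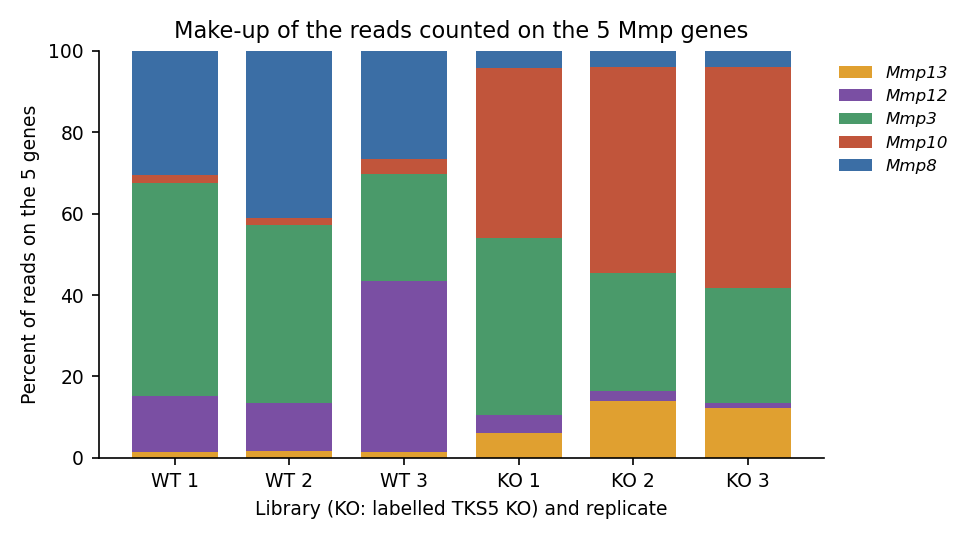
Percent of the reads counted on the 5 genes that fell on each gene, with 1 bar per library (3 WT and 3 labelled TKS5 KO). Mmp10 held 41.9% to 54.5% of the reads in the libraries labelled TKS5 KO and 1.73% to 3.84% in WT, while Mmp8 held 3.88% to 4.19% and 26.5% to 41.0%.

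The other 5 genes of the run could not be tested. Mmp7, Mmp20 and Mmp1a had no count in any library, Mmp27 had 1 and Mmp1b 1. A count of 0 allows up to 1.11 to 1.93 CPM (3 counts) per library, so levels below that were not detectable at this depth. The 10 genes of the run span 427 kb. Inside this span or within 1000000 bases of either end lie 27 other annotated genes, of which 16 had no count. The 4 that were tested were all called, against 44.9% of all genes tested. Dcun1d5, an adaptor for cullin neddylation, was higher (log2 1.38, SE 0.22, edgeR adjusted p = 3.4e-05), as was the membrane protein gene Tmem123 (1.11, SE 0.23, edgeR adjusted p = 0.00045), both in 3 of 3 libraries. Yap1, a co-activator of the Hippo pathway, was higher (0.65, SE 0.19, edgeR adjusted p = 0.0089) but not called with library totals as scaling (0.23) or on the normalized counts (0.34). Birc2, an inhibitor of apoptosis, was lower (-0.93, SE 0.28, edgeR adjusted p = 0.0083), though not called without TKS5 KO replicate 1 (-0.73). Log2 fold changes of these 4 flanking genes ran from -0.93 to 1.38, against -3.72 to 3.73 for the members. The members were picked on their fold changes and the flanking genes by position, so nothing is read from the wider range.

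**Figure D3:**
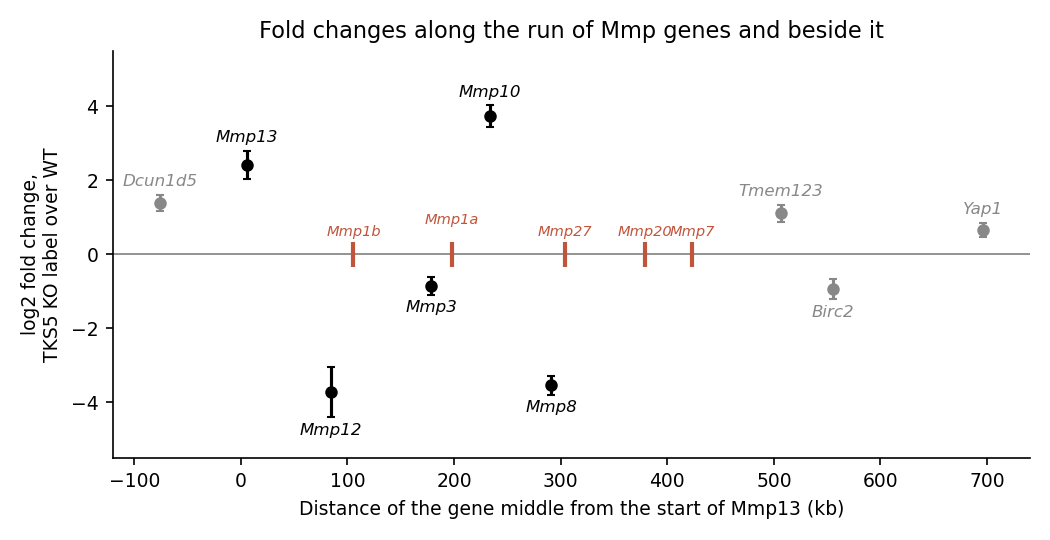
Log2 fold change (libraries labelled TKS5 KO over WT) with its SE against the distance of each gene's middle from the start of Mmp13, for members (black) and the tested flanking genes (grey), with red ticks on the zero line for the 5 genes of the run that were not tested. Mmp13 (2.41) and Mmp10 (3.73) lie above the line, and Mmp12 (-3.72), Mmp3 (-0.85) and Mmp8 (-3.54) below it.

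Taken as a sum, markers of macrophages were lower in the libraries labelled TKS5 KO, as Mmp12 was. The summed level of 20 macrophage markers was 451, 376 and 2336 CPM in WT and 142, 152 and 153 CPM in the libraries labelled TKS5 KO. WT replicate 3 was the highest library for both Mmp12 and the markers, and all 3 libraries labelled TKS5 KO were the lowest for both. Of the 20 markers, 19, 19 and 20 had a count in WT against 14, 12 and 13. 13 were tested, none was called higher, and 7 were called lower (Cd68, Adgre1, Csf1r, Itgax, Cybb, Hcls1 and Laptm5). Over all genes tested, 22.8% were called higher and 22.1% lower. The median of the 13 was -2.61 on the log2 scale, against -0.05 for all genes tested. Tyrobp, Fcer1g, C1qa, C1qc and Cd14 (log2 -0.47) were tested and not called. C1qc had 3, 3 and 59 counts in WT and 10, 11 and 7 in the other group, so only WT replicate 3 was above that group. All 7 were also called without WT replicate 3, but the call was lost under 5 of 17 alternatives for Laptm5, 4 of 17 for Cd68, including the omission of any 1 library labelled TKS5 KO, and 2 of 17 for Cybb. Adgre1 (F4/80), Marco, Siglecf, Chil3 and Ptprc had no count in any library labelled TKS5 KO. Lyz2, the marker with the most reads, had 298, 337 and 3502 counts in WT and 139, 157 and 207 in the other group, and was not called. In bulk RNA, fewer cells of a type and less RNA per cell cannot be told apart. Mmp12 amounted to 13.7%, 12.8% and 7.33% of the marker sum in WT and to 7.36%, 5.02% and 2.35% in the libraries labelled TKS5 KO, so the ratio was not constant. The part of macrophage RNA in the Mmp12 difference was not tested.

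Neutrophil markers, the lineage for which Mmp8 is best known, were near the floor. 5 of 12 had no count in any library (S100a9, Elane, Ltf, Csf3r and Retnlg), and the summed level was 21.2, 26.8 and 63.4 CPM in WT and 3.29, 4.10 and 4.61 CPM in the libraries labelled TKS5 KO. The one marker tested, S100a8, was lower (log2 -3.86, SE 0.51, in 3 of 3 libraries). In WT, Mmp8 was lowest in replicate 3, the library in which the neutrophil and macrophage sums were highest. The part of neutrophil RNA in the Mmp8 difference was not tested.

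Markers of other cells also differed, beside 22.8% of all genes tested called higher and 22.1% lower. Of 4 endothelial markers tested, 3 were lower (Pecam1, Kdr and Egfl7), with Pecam1 at 0 in all libraries labelled TKS5 KO and a summed level of 106 to 127 CPM against 45.6 to 59.9 CPM. Of 3 epithelial markers tested, Krt18 and Cldn4 were lower and Ager was higher, with sums of 32.1 to 66.4 CPM against 29.7 to 62.0 CPM. Ager alone was at 37.3, 60.3 and 29.2 CPM in the libraries labelled TKS5 KO, nearly all of their sum. Cdh1 (17, 8 and 58 counts in WT), Epcam and Krt8 had no count in any library labelled TKS5 KO. Sftpc, Sftpb and Scgb1a1 had none in any library. The mesothelial marker Upk3b was lower, and the 4 mesothelial markers summed to 18.2 to 23.8 CPM against 2.56 to 8.23 CPM. Of 7 smooth muscle and pericyte markers tested, 2 were higher (Cnn1 and Tagln) and 4 lower (Myh11, Notch3, Cspg4 and Des), of which Notch3 lost its call under 3 of 17 alternatives, with sums of 4815 to 5729 CPM against 6245 to 7131 CPM. Acta2, the largest part of these sums, was not called (log2 -0.11, SE 0.21), with means of 4610 CPM in WT and 4283 CPM in the other group. Tagln had means of 478 and 1891 CPM. Of 5 lymphocyte markers, 4 had no count and none was tested. The part of these cells in the values of the 5 genes was not tested.

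The MMP system beyond chromosome 9 had 2 of 6 tested genes lower and none higher, with a median log2 fold change of -0.32. Over all genes tested, 22.1% were called lower and 22.8% higher, with a median of -0.05. Mmp2, gelatinase A and the classical MMP of resting fibroblasts, was lower (log2 -1.73, SE 0.25), as was the membrane-anchored Mmp23 (-1.60, SE 0.31). Mmp14, the membrane-type MMP that activates the Mmp2 zymogen, was at -0.42 and was not called. Of 3 inhibitors tested, Timp3, which binds to the matrix, was lower (-1.35, SE 0.22) and so was Timp2 (-0.88, SE 0.22), while Timp1 was at 0.21 and was not called. Of 5 genes for activators of zymogens and their inhibitors that were tested, Furin, a convertase that removes MMP propeptides, was lower (-1.35, SE 0.22), as was the protease inhibitor gene Serpine2 (-1.99, SE 0.23). The 6 genes named as lower in these 3 lists are named because edgeR's test between the groups called them, at the thresholds given above. Each was lower in 3 of 3 libraries, but the groups did not overlap for 53.8% of all genes tested, so nothing is read from that.

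Of 16 tested transcription factors that act at MMP promoters, 1 was higher and 4 were lower, with a median of -0.30. The shares over all genes tested were 22.8% and 22.1%. Among the AP-1 genes, Junb was lower (log2 -0.56, SE 0.22), Jun (0.41), Jund (-0.41), Fosl1 (-0.50) and Fosl2 (0.21) were not called, and Fos, Fosb and Atf3 were too low to test. The ETS gene Etv4 was lower (-2.21, SE 0.43). Runx1 (-0.85, SE 0.34) and the NF-kappaB subunit gene Rela (-0.65, SE 0.21) were lower, and Stat3 was higher (0.67, SE 0.25). Runx2, the factor best known for driving Mmp13 in bone and cartilage, was at 0.44 and was not called. The calls of Junb, Runx1, Rela and Stat3 were lost under 9, 7, 4 and 6 of 18 alternatives.

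Of 10 tested cytokines and receptors that induce MMP genes, 3 were higher and 1 lower, with a median of -0.04. The shares over all genes tested were 22.8% and 22.1%. Pdgfa, a growth factor for fibroblasts, was higher (log2 1.11, SE 0.23), as were Il1rn, the antagonist of the interleukin-1 receptor (0.89, SE 0.29), and Il6 (0.79, SE 0.27), the last with 26, 37 and 44 counts in WT and 48, 51 and 69 in the other group. The calls of Il1rn and Il6 were lost under 3 and 4 of 18 alternatives. Il6st, the shared signalling receptor of the interleukin-6 family, was lower (-1.04, SE 0.23), but was not called with the length correction (-0.47). Il1a, Il1b, Osm, Tnf and Hgf were too low to test.

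Among 10 tested genes for substrates of these enzymes, 1 was higher and 4 were lower, with a median of -0.33. The shares over all genes tested were 22.8% and 22.1%. Eln, encoding the elastin that Mmp12 degrades, was lower (log2 -2.83, SE 0.29), as were Fn1 for fibronectin (-1.55, SE 0.21), Col4a1 for basement membrane collagen (-1.32, SE 0.22) and Lamc1 for a laminin chain (-1.26, SE 0.32), the last not called with the length correction (-0.76). Of the fibrillar collagens that Mmp8 and Mmp13 cut, Col3a1 was higher (0.64, SE 0.25), but its call was lost under 8 of 18 alternatives. Col1a1 (0.45) and Col1a2 (0.39) were not called.

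Genes most like each member were ranked by Pearson's r of log2 CPM over the 6 libraries, among 10016 genes. Both groups enter each r, so any gene that differs between the groups scores high, and r was at least 0.95 for 750 genes with Mmp10, 499 with Mmp8, 389 with Mmp13, 185 with Mmp12 and 43 with Mmp3. The closest to Mmp10 were Gm8203, Rpl15 and Chchd1 (r of at least 0.998). The closest to Mmp8 were Isyna1, C3, the central complement component, and Ssbp4 (0.998 each). C3 had 418, 547 and 600 counts in WT and 9, 11 and 13 in the libraries labelled TKS5 KO. The closest to Mmp13 were Bhlhe22, Snord22 and Snhg1 (0.997 to 0.998), which share its low value in TKS5 KO replicate 1. The closest to Mmp12 were Spire1 (0.995), Etv4 and the macrophage marker Laptm5 (0.991 each), all highest in WT replicate 3. The closest to Mmp3 were 3110045C21Rik (0.990), Jade1 (0.989) and Pigv (0.988), of which Jade1 and Pigv were not called.

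**Figure D4:**
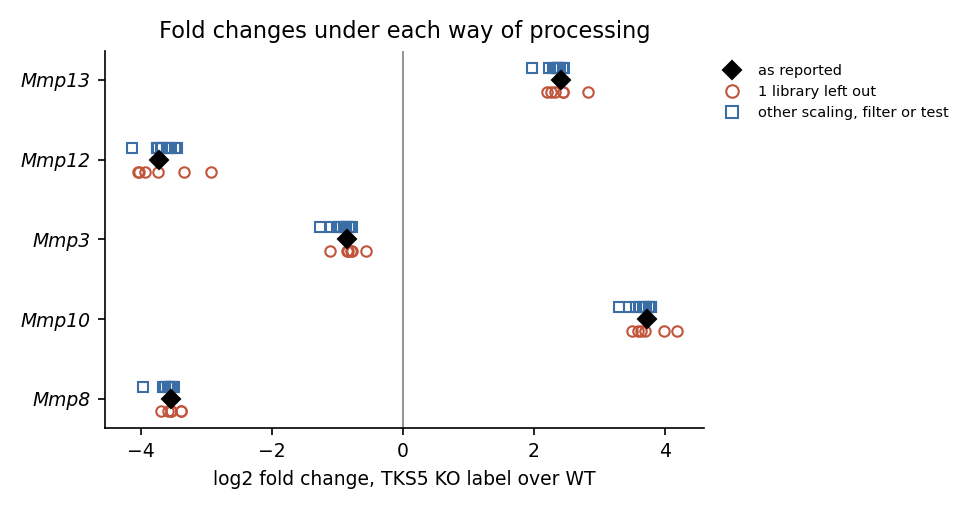
Log2 fold change of each gene (libraries labelled TKS5 KO over WT) as reported (diamonds), with 1 library left out (circles) and with another scaling, filter, correction or test (squares). Mmp13 stayed between 1.97 and 2.82, Mmp10 between 3.30 and 4.18, Mmp8 between -3.97 and -3.38, Mmp12 between -4.14 and -2.93 and Mmp3 between -1.27 and -0.56.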

How the data were processed

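The authors prepared 3′ mRNA libraries (QuantSeq, Ion Torrent) and, per the methods and the submitters' processing notes, trimmed reads with Trim Galore and aligned these to GRCm38 (HISAT2, with Bowtie2 for what remained). The deposited counts are raw reads per gene, counted by the authors with metaseqR2 over 3′ UTR regions of at least 300 bases with a 50-base flank. Whether strand was used is not given in the sources used here. The deposited normalized table holds a score, EDASeq-normalized counts rounded by the authors, and was used only as an alternative.

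Counts were filtered (filterByExpr, 10346 genes kept of 55364 listed; about 4.89 CPM), scaled by TMM and fitted with edgeR 4.0.16 (robust quasi-likelihood, R 4.3.3), WT against TKS5 KO, with Benjamini-Hochberg adjustment over all genes tested. Calls required an adjusted p below 0.05 together with a 1.2-fold change or more. The SE of a log2 fold change was derived from the F statistic of this fit, which moderates the variation of each gene over all genes. Depth was 1344507 to 2369882 counts per library, and within-group spread covers counting error as well. The fit was tested on simulated data. The alternatives were other scalings, filters, GC and length corrections, a replicate block, DESeq2 1.42.0, limma 3.58.1 and leaving out each library. Genes were located in GENCODE M21 (GRCm38), and 55104 of the identifiers matched. Promoter windows came from RefSeq.

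The 5 genes, the lists and the markers were chosen with earlier results of these data known. Named were the 5 genes, called genes of the lists and of the flanks, up to 5 markers per cell type by mean CPM and any at 0, Sh3pxd2a, and for each of the 5 genes the 3 with the highest Pearson's r (average of at least 10 counts per library). Markers called beyond the 5 highest, and uncalled genes named beside called ones, were named after their values were seen. The authors' fold changes were not used. No amino acid sequences were used here.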

Additional observations from a re-analysis of the deposited data

How the results depend on the processing

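All 5 genes kept their direction under every alternative run. With 1 library left out, log2 fold changes ran from 2.20 to 2.82 for Mmp13, -4.04 to -2.93 for Mmp12, -1.11 to -0.56 for Mmp3, 3.51 to 4.18 for Mmp10 and -3.69 to -3.38 for Mmp8. 2 calls were lost among these, Mmp12 without TKS5 KO replicate 2 (-3.74) and Mmp3 without WT replicate 1 (-0.56). Under the other alternatives they ran from 1.97 to 2.46, -4.14 to -3.46, -1.27 to -0.77, 3.30 to 3.80 and -3.97 to -3.50, in the same order, with no call lost. Mmp12 was not tested where at least 10 counts were required in every library, since it had 7 in TKS5 KO replicate 3. With library totals as scaling, 1362 genes were called higher and 3944 lower, against 2356 and 2286, and by construction all fold changes moved down together. The number of genes called was 4094 with DESeq2 and 3853 to 4595 with 1 library left out. The called genes of the lists, markers and flanks, together with Sh3pxd2a, made up 52 other named genes. Of these 52, 35 kept their call throughout and 17 did not, and none reversed while called. Other genes named as not called, or only for their likeness to a member, were not among the 52. Sh3pxd2a was called with the length correction alone (log2 0.97). Same-numbered libraries of the groups did not deviate together (r of -0.001, -0.06 and 0.08). These values show no shared effect of the numbers, but cannot tell whether same-numbered libraries belong together. With the replicate block, 4668 genes were called (2360 higher, 2308 lower), and the 5 genes stood at 2.37 (Mmp13), -3.54 (Mmp12), -0.78 (Mmp3), 3.79 (Mmp10) and -3.52 (Mmp8), with their calls kept. Depth limits Mmp13 in WT (10 to 15 counts) and Mmp12 in the libraries labelled TKS5 KO (7 to 19 counts).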
